A study of Mus musculus with 3 samples.

Results

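A set of 10 genes of receptor-mediated protein uptake and lysosomal protein breakdown was followed through 3 single-cell libraries of mouse blastoids. They were chosen by symbol and with earlier results of these data known, as 10 of the 32285 genes in the count matrices. All 10 were present under 1 gene ID each. Cubn (cubilin), Amn (amnionless) and Lrp2 (megalin) encode endocytic receptors, and Dab2 encodes the clathrin adaptor that couples megalin to the coat. Ctsh, Ctsl, Ctsb, Ctsz and Ctsc encode the cysteine cathepsins H, L, B, Z and C, and Lgmn encodes legumain, an asparaginyl endopeptidase. In 10x 3' libraries each transcript is counted once through its molecular identifier (UMI), and levels are given as CPM, the UMIs of a gene scaled to a common total over the barcodes of a state.

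Cubilin has no membrane-spanning part of its own. Amnionless anchors it and carries it to the cell surface, and the pair is known as cubam. Cubam and megalin, a very large receptor of the LDL receptor family, bind vitamin-binding proteins, lipoproteins, albumin and many other ligands at the apical face of absorptive epithelia. The ligands pass through coated pits and endosomes to lysosomes, where cathepsins and legumain cut them into peptides. In the rodent embryo the visceral endoderm, the outer layer of the egg cylinder and later of the yolk sac, feeds the embryo in this way before a placenta works. Mouse embryos without Amn, Cubn or Dab2 fail with defects of this layer.

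Blastoids are stem cell aggregates that resemble the blastocyst. They were grown here from E14 mouse embryonic stem cells that had been kept in medium with LIF, 15% FBS and 10 µM T0901317, an agonist of the liver X receptors (the submitters' "NrESC"), and were harvested on day 5. All 3 libraries, titled Type I, Type II and Type III, share this treatment and also 12.5 ng/mL rhFGF4, 0.5 µg/mL heparin, 3 µM CHIR99021, 2 µM Y27632, 5 ng/mL BMP4 and 0.5 µM A83-01. The sources used here do not say how the types differ, each type has 1 library, and no untreated or embryo sample was analysed. The 3 libraries stand in for replicates when states are compared. The main test treats library as a block, which takes out differences between libraries that all states share. Its p-values therefore rest on how far differences between states vary from library to library. These libraries are labelled as different types and come from 1 stem cell line.

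The depth floor was 10000 UMIs per barcode and the ceiling for mitochondrial UMIs was 20%, which left 1405 barcodes of Type I, 1992 of Type II and 272 of Type III, with 82.2% to 86.9% of each library's UMIs and a median of 41491 to 71540 UMIs per barcode. The 4 states were assigned by summed CPM in a fixed order. Visceral endoderm had at least 1000 CPM of the secreted carriers Ttr, Rbp4, Apoa1 and Apoa2. Early primitive endoderm (early PrE) had at least 100 CPM of the endoderm factors Gata6, Sox17 and Gata4. Trophectoderm (TE) had at least 800 CPM of the keratins Krt8, Krt18 and Krt19, and epiblast had at least 150 CPM of Pou5f1. In Types I, II and III the visceral endoderm held 443, 563 and 19 barcodes, early PrE 271, 376 and 45, TE 208, 278 and 72, and epiblast 351, 582 and 121. None of the 10 genes is part of this rule.

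Markers outside the rule were set against the labels. The 10 listed for visceral endoderm summed to 4504 to 5275 CPM in visceral endoderm and to 29.8 to 65.3 CPM in epiblast, with 870 to 1336 CPM in early PrE and 254 to 291 CPM in TE. Of the anterior markers among them Cer1 was at 0 in visceral endoderm. Dkk1 was lowest there among these 3 states, at 17.2 to 30.2 CPM against 80.4 to 182 CPM in early PrE and 158 to 193 CPM in TE. Primitive endoderm markers had 4974 to 5652 CPM in early PrE, 3732 to 4223 CPM in visceral endoderm and 24.2 to 62.9 CPM in epiblast. Parietal endoderm markers were also high in both, at 4017 to 4678 and 3330 to 3623 CPM, so the lists do not exclude parietal endoderm. Epiblast markers outside the rule had 1258 to 1522 CPM in early PrE and 414 to 547 CPM in visceral endoderm. The gates overlap: 94.7% to 99.1% of visceral endoderm barcodes also met another gate, mostly those of the endoderm factors and of the keratins, which this epithelium also expresses. Only 0% to 2.49% of them met the Pou5f1 gate. Of early PrE barcodes 16.2%, 17.6% and 37.8% in Types I, II and III met the Pou5f1 gate and 51.7%, 48.4% and 33.3% the keratin gate. Type III stood apart before any result: it had 19 visceral endoderm barcodes, and its endoderm barcodes were the deepest. Its early PrE barcodes carried 215 CPM of 2-cell-like markers against 0.136 and 5.96 CPM in the other libraries, 41.6 CPM of blood and endothelium markers against 5.77 and 7.57 CPM, and 218 CPM of TE markers against 150 CPM or less. Kept barcodes shared between libraries numbered 1 for Types I and II and 0 for the other pairs. Macrophages also use cathepsins heavily, and of 7 macrophage markers Ptprc, C1qa and Adgre1 were at 0 in visceral endoderm, with 17.2 to 24.0 CPM for the whole list, nearly all of it Cd68.

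Promoters are shown for genes whose levels separate the states, so that the letters before their start sites can be set beside one another. RefSeq (GRCm38.p6) gave 10 promoters for 8 of the 10 genes. The 250 bases before the start site were searched on both strands for a GATA motif (AGATAA or TGATAA), the core of an HNF1 site (GTTAAT) and the CACGTG core bound by MiT/TFE factors, MYC and USF, none of which overlap, and capitals mark every match. Cubn and Amn, whose products form 1 receptor, are given first, then both promoters of Dab2 and those of Ctsl and Ctsz, the cathepsin genes with a match.
Cubn (chr2:13491877-13492126, minus strand): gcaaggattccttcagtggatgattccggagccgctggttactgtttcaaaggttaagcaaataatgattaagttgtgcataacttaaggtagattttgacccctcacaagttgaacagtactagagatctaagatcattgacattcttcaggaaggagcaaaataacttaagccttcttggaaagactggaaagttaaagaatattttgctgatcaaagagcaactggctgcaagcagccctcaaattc
Amn (chr12:111270846-111271095, plus strand): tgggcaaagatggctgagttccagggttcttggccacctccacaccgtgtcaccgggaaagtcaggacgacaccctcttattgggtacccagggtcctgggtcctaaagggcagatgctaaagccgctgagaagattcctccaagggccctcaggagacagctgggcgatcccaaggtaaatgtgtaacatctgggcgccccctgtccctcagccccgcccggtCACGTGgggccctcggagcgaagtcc
Dab2, promoter 1 (chr15:6299539-6299788, plus strand): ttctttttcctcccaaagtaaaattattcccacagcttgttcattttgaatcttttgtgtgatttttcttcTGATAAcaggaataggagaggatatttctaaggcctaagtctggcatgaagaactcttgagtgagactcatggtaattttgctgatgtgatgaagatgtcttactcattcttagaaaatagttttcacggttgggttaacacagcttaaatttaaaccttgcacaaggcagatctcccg
Dab2, promoter 2 (chr15:6386498-6386747, plus strand): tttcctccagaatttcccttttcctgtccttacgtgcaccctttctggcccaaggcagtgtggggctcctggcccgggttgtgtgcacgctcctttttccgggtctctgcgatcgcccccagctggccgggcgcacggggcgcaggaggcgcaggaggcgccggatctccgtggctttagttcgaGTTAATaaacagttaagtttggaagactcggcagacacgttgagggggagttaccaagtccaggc
Ctsl (chr13:64370521-64370770, minus strand): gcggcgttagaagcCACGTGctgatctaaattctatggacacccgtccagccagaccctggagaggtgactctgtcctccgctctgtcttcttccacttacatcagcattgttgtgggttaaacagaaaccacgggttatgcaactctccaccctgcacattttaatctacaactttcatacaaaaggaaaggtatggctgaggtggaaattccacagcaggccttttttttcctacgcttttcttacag
Ctsz (chr2:174439040-174439289, minus strand): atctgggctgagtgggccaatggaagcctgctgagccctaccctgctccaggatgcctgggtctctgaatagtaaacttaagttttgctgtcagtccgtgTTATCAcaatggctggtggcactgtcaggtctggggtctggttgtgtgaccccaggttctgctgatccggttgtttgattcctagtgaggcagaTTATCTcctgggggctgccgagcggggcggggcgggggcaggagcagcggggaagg
Of the 10 promoters, 2 held a GATA motif (Dab2 promoter 1 and Ctsz), 1 held the HNF1 core (Dab2 promoter 2), 3 held CACGTG (Amn, Ctsl and Lgmn promoter 2) and 4 held none. Among all 32817 mouse promoters of this length in the table, 16.6% held the GATA motif, 6.44% the HNF1 core and 6.02% CACGTG. Cubn and Amn had no match in common. In Amn the CACGTG began 26 bases before the RefSeq start, and in Ctsl 236 bases before it. The windows of Ctsl, Lgmn promoter 2 and Dab2 promoter 2 lie inside the span of their gene in GENCODE. They therefore do not precede the outermost annotated start of the gene. The matches are letters in a window and no binding was measured.

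All 10 genes were higher in both endoderm states than in epiblast and TE. Against epiblast, visceral endoderm was higher for 10 of 10 genes, where 38% of the 13605 genes tested were called higher and 37.7% lower, and early PrE for 10 of 10, where 36.1% were higher and 34.5% lower (edgeR quasi-likelihood test with library as a block, Benjamini-Hochberg adjustment at 0.05). Against TE both were again 10 of 10, with 33% and 30.2% of all genes called higher, and 32.6% and 29.1% lower. The median log2 fold change of the 10 genes was 5.01 for visceral endoderm and 4.71 for early PrE over epiblast, against 0.00 and 0.02 over all genes tested. The 4 comparisons are read from the same 12 sums and share groups, so they are not separate observations. The 10 genes and the state rule were also chosen with earlier results of these data known. The counts and medians therefore describe the set and are no independent check of it. Receptors and adaptor were set further apart from epiblast (median 6.50 in visceral endoderm) than the proteases (median 3.57), and the lowest of the 4, Lrp2, lay within the protease range.

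**Figure D1:**
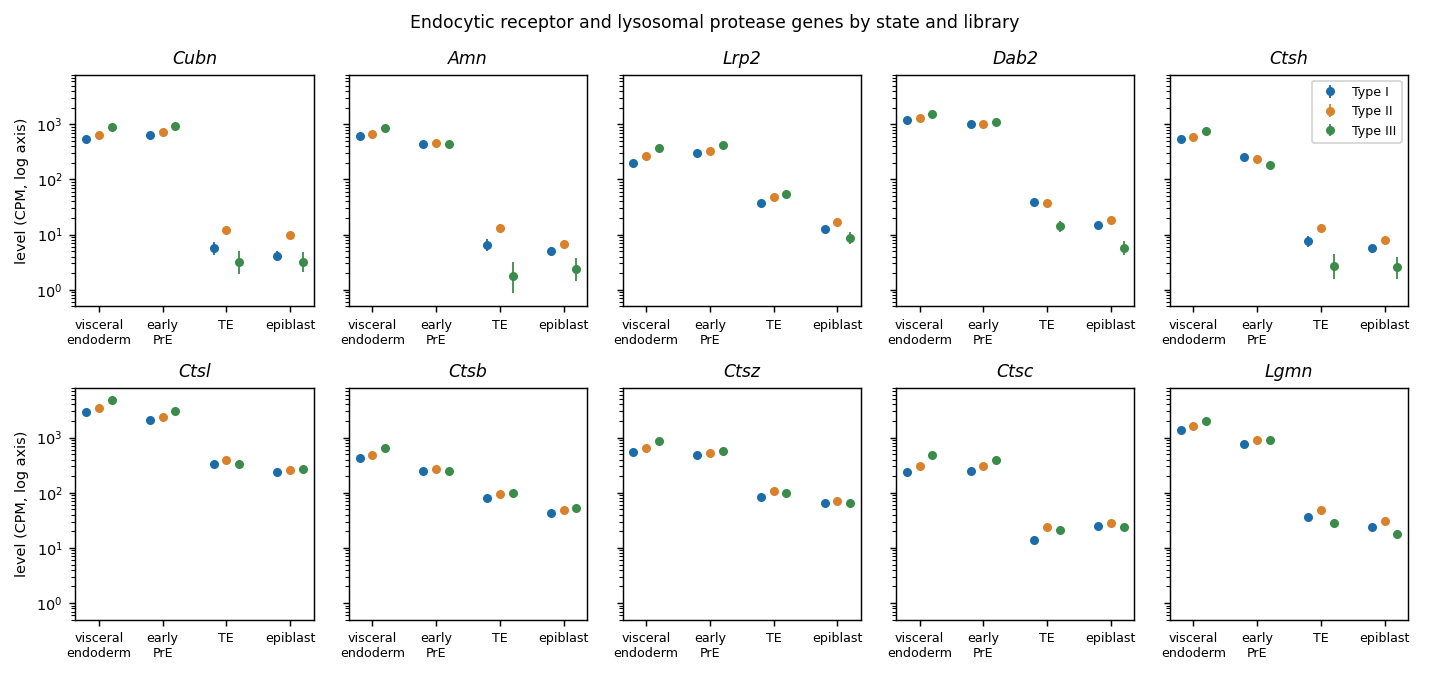
Level of each gene (CPM, log axis) in the 4 states, with 1 point per library and 95% Poisson intervals that cover counting error only. Both endoderm states lie above TE and epiblast in every panel and library; Ctsl, Ctsb and Ctsz keep 42.8 CPM or more in epiblast, while Cubn, Amn and Ctsh stay under 10 CPM there.

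Cubn (chr2:13276338-13491813, minus strand, GRCm38) stood at 532, 629 and 890 CPM in the visceral endoderm of Types I, II and III and at 637, 715 and 944 CPM in early PrE. In TE it was at 5.70, 12.1 and 3.21 CPM and in epiblast at 4.12, 9.68 and 3.23 CPM. The endoderm states did not overlap with the other states, and early PrE was the higher of the endoderm states in each library, although the ranges of the libraries overlap. The fold change over epiblast was 6.56 on the log2 scale in visceral endoderm (edgeR adjusted p = 3.76e-11) and 6.75 in early PrE (edgeR adjusted p = 4.69e-11). Visceral endoderm and early PrE were not separated by the test (log2 fold change -0.18, edgeR adjusted p = 0.577), nor were TE and epiblast (-0.05, edgeR adjusted p = 0.913).

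Amn (chr12:111271095-111276426, plus strand) stood at 605, 659 and 867 CPM in visceral endoderm and at 441, 462 and 437 CPM in early PrE. TE had 6.56, 13.2 and 1.77 CPM and epiblast 4.99, 6.75 and 2.42 CPM. Unlike Cubn, its partner was highest in visceral endoderm, and the ranges of the endoderm states did not overlap. The log2 fold change was 6.92 over epiblast (edgeR adjusted p = 2.92e-11) and 0.65 over early PrE (edgeR adjusted p = 0.0401). The call over early PrE was lost without Type I (0.75, edgeR adjusted p = 0.117), without Type II (0.74, edgeR adjusted p = 0.108) and without library as a block (edgeR adjusted p = 0.141). It was also lost with doubled thresholds, with DESeq2, and without barcodes of other states at the Pou5f1 threshold or endoderm barcodes high in other markers, at log2 fold changes of 0.48 to 0.71. Within single libraries Amn was higher in visceral endoderm in 3 of 3 and Cubn lower in 3 of 3, by log2 ratios of 0.46, 0.51 and 0.99 for Amn and -0.26, -0.18 and -0.09 for Cubn.

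Lrp2 (chr2:69424340-69586065, minus strand) was the receptor with a level of its own in TE. It stood at 199, 267 and 371 CPM in visceral endoderm, at 298, 323 and 429 CPM in early PrE, at 38.1, 47.1 and 53.5 CPM in TE and at 12.6, 17.1 and 8.62 CPM in epiblast. Every TE value lay above every epiblast value and below every endoderm value. The log2 fold change over epiblast was 4.10 in visceral endoderm (edgeR adjusted p = 2.48e-11), 4.48 in early PrE (edgeR adjusted p = 1.60e-11) and 1.39 in TE (edgeR adjusted p = 1.01e-05). Between the endoderm states the test did not pass with all libraries (-0.37, edgeR adjusted p = 0.0821), and it did without Type III (-0.42, edgeR adjusted p = 0.000768), with thinned barcodes (-0.31, edgeR adjusted p = 0.0129) and with no low-count filter (-0.37, edgeR adjusted p = 5.81e-05). Early PrE was the higher of these states in 3 of 3 libraries.

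Dab2 (chr15:6299788-6440712, plus strand) stood at 1214, 1306 and 1518 CPM in visceral endoderm and at 1024, 1027 and 1084 CPM in early PrE. In TE it was at 39.5, 36.8 and 14.1 CPM, and in epiblast at 14.9, 18.5 and 5.79 CPM. The endoderm ranges did not overlap with each other, while the TE range overlapped with that of epiblast because of Type III. The log2 fold change over epiblast was 6.44 in visceral endoderm (edgeR adjusted p = 4.51e-11), 6.08 in early PrE (edgeR adjusted p = 1.12e-10) and 0.83 in TE (edgeR adjusted p = 0.0222). The TE call was lost without Type I (0.64, edgeR adjusted p = 0.151), without Type II (0.99, edgeR adjusted p = 0.0525) and with DESeq2 (0.87, adjusted p = 0.0893). Visceral endoderm over early PrE did not pass (0.36, edgeR adjusted p = 0.273) and passed without Type III (0.30, edgeR adjusted p = 0.00433), with lowered thresholds (0.55, edgeR adjusted p = 0.0291), with thinned barcodes (0.40, edgeR adjusted p = 0.00621) and with no low-count filter (0.36, edgeR adjusted p = 4.05e-06).

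Ctsh (chr9:90054152-90076089, plus strand), an aminopeptidase among the cathepsins, changed most between the endoderm states. It stood at 531, 582 and 765 CPM in visceral endoderm and at 256, 236 and 183 CPM in early PrE. TE had 7.60, 13.4 and 2.73 CPM and epiblast 5.65, 7.99 and 2.56 CPM. No library's early PrE reached the visceral endoderm range, and TE and epiblast overlapped. The log2 fold change of visceral endoderm was 6.56 over epiblast (edgeR adjusted p = 3.77e-11) and 1.47 over early PrE (edgeR adjusted p = 0.000234), with within-library ratios of 1.06, 1.30 and 2.06.

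Lgmn (chr12:102394084-102439813, minus strand), which also activates cathepsin precursors by cutting them, stood at 1361, 1642 and 2041 CPM in visceral endoderm and at 753, 901 and 902 CPM in early PrE. TE had 37.1, 47.8 and 28.3 CPM and epiblast 23.8, 30.8 and 18.0 CPM. Its log2 fold change in visceral endoderm was 5.91 over epiblast (edgeR adjusted p = 1.17e-12) and 0.97 over early PrE (edgeR adjusted p = 0.000254). With Ctsh it formed the pair of proteases whose levels in epiblast were under 2% of those in visceral endoderm.

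The other cathepsins kept a measurable level in epiblast. Ctsl (chr13:64359337-64370890, minus strand), an endopeptidase, stood at 2909, 3441 and 4909 CPM in visceral endoderm, 2081, 2388 and 3039 CPM in early PrE, 326, 392 and 338 CPM in TE and 235, 264 and 275 CPM in epiblast. Ctsb (chr14:63122462-63145923, plus strand), which cuts both inside and at the end of its substrates, stood at 425, 486 and 636 CPM in visceral endoderm, 252, 266 and 247 CPM in early PrE, 79.1, 96.9 and 99.9 CPM in TE and 42.8, 49.6 and 53.9 CPM in epiblast. For both genes the 4 states followed each other in CPM without overlap between neighbouring ranges, except between the endoderm states for Ctsl. There the highest early PrE value exceeded the lowest visceral endoderm value. In the main test Ctsl did not pass for TE over epiblast (log2 fold change 0.13, edgeR adjusted p = 0.321). Over epiblast the log2 fold change of visceral endoderm was 3.67 for Ctsl (edgeR adjusted p = 1.95e-12). For Ctsb it was 3.22 (edgeR adjusted p = 8.20e-13). Over early PrE Ctsb differed by 0.98 (edgeR adjusted p = 2.34e-06) and Ctsl by 0.57 (edgeR adjusted p = 0.00189).

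Ctsz (chr2:174427493-174439039, minus strand), a carboxypeptidase, stood at 547, 647 and 852 CPM in visceral endoderm, 486, 531 and 570 CPM in early PrE, 84.1, 108 and 98.1 CPM in TE and 66.0, 71.5 and 65.8 CPM in epiblast. The endoderm ranges overlapped, and visceral endoderm was higher by 0.34 on the log2 scale (edgeR adjusted p = 0.0161), a call lost without Type II (edgeR adjusted p = 0.120), without library as a block (edgeR adjusted p = 0.0721), with doubled thresholds (edgeR adjusted p = 0.0737) and without endoderm barcodes high in other markers (edgeR adjusted p = 0.167). Ctsc (chr7:88278085-88310888, plus strand), a dipeptidyl peptidase that activates serine proteases of blood cells, stood at 239, 305 and 477 CPM in visceral endoderm, 251, 308 and 394 CPM in early PrE, 14.1, 24.5 and 21.4 CPM in TE and 24.8, 28.2 and 23.6 CPM in epiblast. It was the member whose endoderm states were closest (log2 fold change 0.05, edgeR adjusted p = 0.820). Its level is uncertain, since the last 500 bases of 1 of its 3 annotated transcripts share stretches of up to 86 bases with 314 other genes. Ctsb shares 774 exon bases with Fdft1 on the other strand, which reached 148 CPM, and the sources used here do not say whether counting used strand.

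Between the endoderm states, 6 of 10 genes were higher in visceral endoderm than in early PrE (Ctsh, Ctsb, Lgmn, Amn, Ctsl and Ctsz), where 11.7% of all genes were called higher, and 0 were lower, where 10.9% were (edgeR quasi-likelihood test). Of the 6 proteases 5 passed, and of the receptor and adaptor genes only Amn did. The 4 that did not pass with edgeR were Cubn, Lrp2, Dab2 and Ctsc, and without Type III, thinned or with no low-count filter Lrp2 passed as lower and Dab2 as higher. With the barcodes that met exactly 1 gate, which left 7, 5 and 1 visceral endoderm barcodes, only Ctsh was called higher.

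**Figure D2:**
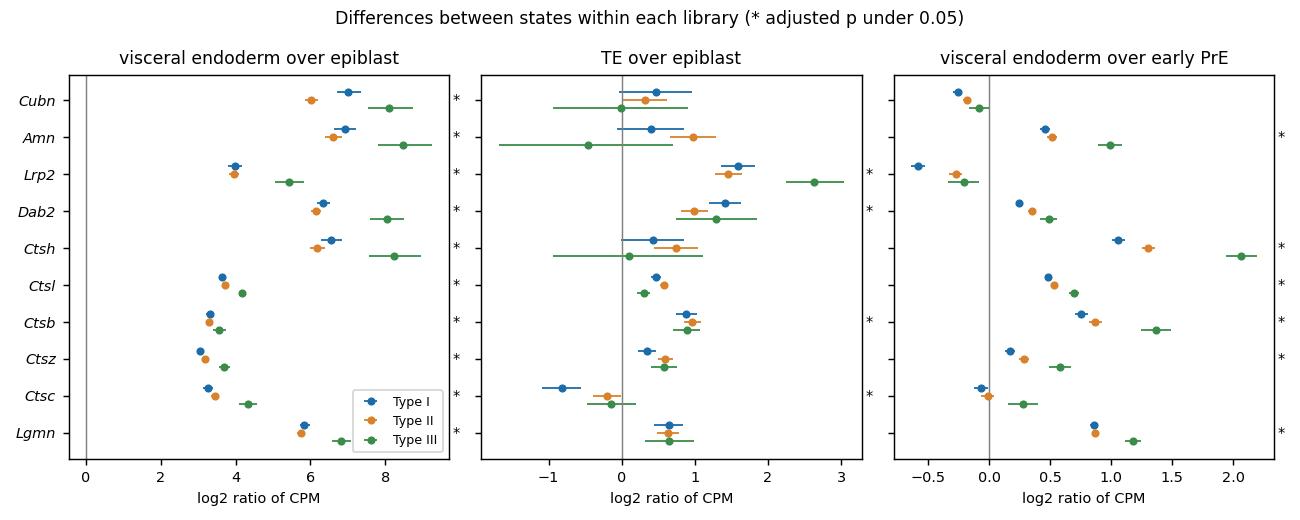
Log2 ratio of CPM between states within each library (x axis, no scaling beyond library size), 1 point per library with 95% counting intervals, for visceral endoderm over epiblast, TE over epiblast and visceral endoderm over early PrE; an asterisk marks an edgeR adjusted p under 0.05. In the right panel Cubn and Lrp2 lie left of 0 in 3 of 3 libraries and Ctsh furthest right, at 1.06 to 2.06; in the middle panel Lrp2 is furthest right.

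TE and epiblast differed in 4 of the 10 genes. Lrp2 (log2 fold change 1.39), Dab2 (0.83) and Ctsb (0.59, edgeR adjusted p = 6.82e-05) were higher in TE, where 27.9% of all genes were called higher, and Ctsc was lower (-0.72, edgeR adjusted p = 0.00171), where 30.2% were lower. The 6 others did not pass with edgeR, with log2 fold changes from -0.05 for Cubn to 0.30 for Lgmn. Scaling matters here: TMM moved the log2 fold changes of TE over epiblast by -0.32 against library size alone. Without that scaling 6 members were higher and 0 lower (Ctsb, Ctsl, Ctsz, Dab2, Lgmn and Lrp2 higher), and 73.6% of all called genes were higher in place of 48.1%. Under it Ctsc had a log2 fold change of -0.40 (edgeR adjusted p = 0.0539) and Cubn turned to 0.26. Without Type III 6 members were also called higher, Ctsl (0.21, edgeR adjusted p = 0.00176), Ctsz (0.16, edgeR adjusted p = 0.0486) and Lgmn (0.32, edgeR adjusted p = 0.00109) being added.

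Droplet libraries carry free RNA, so a low level outside the endoderm was set against other endoderm genes. The secreted-protein genes Apob, Apoc2 and Apom stood in epiblast at 0.0584% to 1.15% of their visceral endoderm level over the 3 libraries. Pdgfra stood at 0.246% to 1.17%, Col4a1 at 0.546% to 1.58% and Lama1 at 1.92% to 3.10%, the last with an early PrE level that was 295% to 361% of the visceral endoderm level. Cubn (0.363% to 1.54%), Amn (0.280% to 1.02%), Ctsh (0.335% to 1.37%), Dab2 (0.381% to 1.42%) and Lgmn (0.884% to 1.88%) overlapped with the range of the secreted-protein genes, and expression in epiblast cannot be told apart from free RNA at such levels. Within single libraries Ctsh, Dab2 and Lgmn lay above Apob, Apoc2 and Apom, and each of these members lay below Lama1. Lrp2 kept 6.35%, 6.43% and 2.32% in Types I, II and III. Within each library this was above the 6 endoderm genes, of which Lama1 was highest at 2.62%, 3.10% and 1.92%. Across libraries the ranges of Lrp2 and Lama1 overlapped, and the part of free RNA in the Lrp2 level was not tested. Ctsl kept 5.59% to 8.09%, Ctsb 8.46% to 10.2%, Ctsz 7.73% to 12.1% and Ctsc 4.94% to 10.4%, each above the highest value of the 6 endoderm genes. In TE Lrp2 kept 14.4% to 19.2%, against 0.0697% to 1.48% for Apob, Apoc2 and Apom, 0.756% to 1.47% for Pdgfra, 1.27% to 3.48% for Lama1 and 2.65% to 3.93% for Col4a1. For Cubn, Amn and Ctsh the epiblast and TE levels were highest in Type II and lowest in Type III, the library in which visceral endoderm made up 6.99% of barcodes against 28.3% and 31.5%. The part of free RNA in these levels was not tested further.

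Single barcodes showed the same division when each was thinned to 10000 UMIs. Cubn had a UMI in 83.7%, 89.9% and 94.7% of visceral endoderm barcodes of Types I, II and III, in 79.0%, 80.9% and 71.1% of early PrE, in 5.29%, 11.2% and 4.17% of TE and in 7.41%, 8.59% and 1.65% of epiblast barcodes. Before thinning, with median depths of 37918 to 92031 UMIs per state and library, the visceral endoderm shares were 96.8%, 97.2% and 100%, and those of epiblast were 19.4%, 28.9% and 15.7%. Ctsl had a UMI in 99.8%, 99.8% and 100% of visceral endoderm and still in 83.5%, 87.3% and 87.6% of epiblast barcodes. Lrp2 in TE was spread over 25.5%, 20.9% and 27.8% of barcodes, against 8.83%, 14.1% and 8.26% in epiblast.

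**Figure D3:**
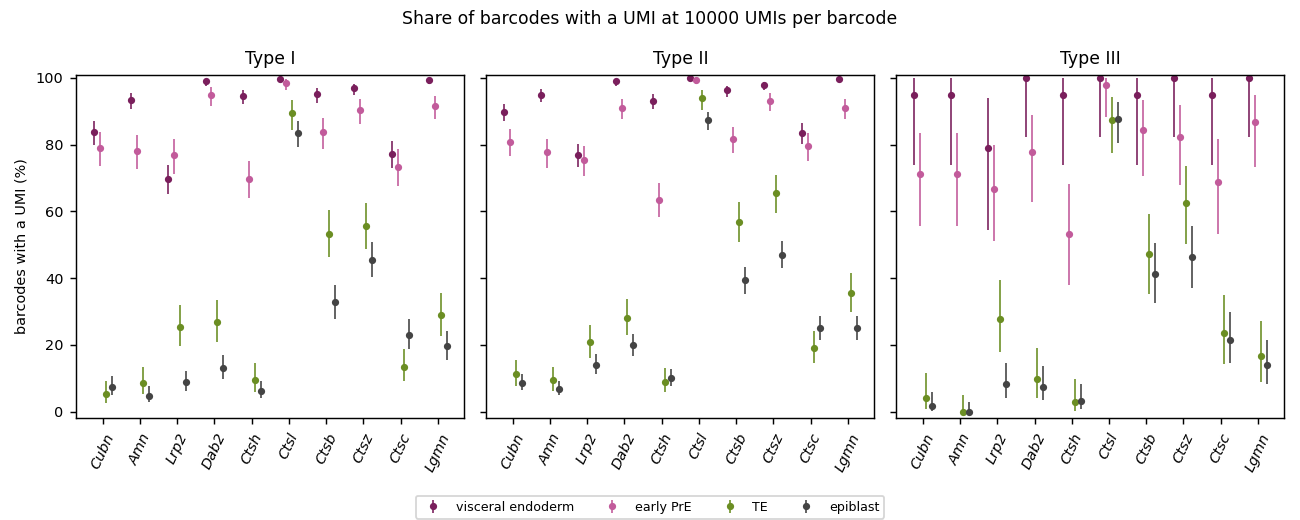
Percentage of barcodes with at least 1 UMI of each gene (y axis) after thinning every barcode to 10000 UMIs, for the 4 states in each library, with exact 95% binomial intervals that cover counting error only. Ctsl stays above 80% in every state, whereas Cubn, Amn and Ctsh are under 15% in TE and epiblast; Type III intervals are wide because it has 19 visceral endoderm barcodes.

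The complete receptor set was found together in most endoderm barcodes. Cubn, Amn, Lrp2 and Dab2 all had a UMI in 59.8%, 69.4% and 73.7% of visceral endoderm barcodes and in 57.2%, 60.4% and 60.0% of early PrE barcodes. In TE the shares were 0%, 0.360% and 0%, and in epiblast 0.285%, 0.344% and 0%. The 6 proteases were found together in 67.9%, 75.1% and 84.2% of visceral endoderm barcodes, and in 47.6%, 47.1% and 46.7% of early PrE barcodes. A count of 0 allows up to 1.44% in TE of Type I, 4.17% in TE of Type III and 2.48% in epiblast of Type III.

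Some early PrE barcodes had almost none of the receptors. At most 3 UMIs of the 4 genes together, after thinning, were found in 25 barcodes of Type I, 42 of Type II and 11 of Type III, against 7, 5 and 0 visceral endoderm barcodes. In these early PrE barcodes TE markers outside the rule summed to 422, 1030 and 945 CPM, against 74.4, 64.5 and 50.1 CPM in the other early PrE barcodes. The 2-cell-like markers summed to 1.15, 64.4 and 1149 CPM in them, against 0.0722, 0.281 and 0.274 CPM. These sums do not describe every such barcode. Only 10 of 25, 24 of 42 and 7 of 11 reached 300 CPM of TE, 100 CPM of blood or 100 CPM of 2-cell-like markers. When endoderm barcodes high in TE, blood or 2-cell-like markers were left out, an alternative added after the data were seen, Lrp2 passed as lower in visceral endoderm than in early PrE (log2 fold change -0.53, edgeR adjusted p = 0.0166), while Amn (0.48, edgeR adjusted p = 0.106) and Ctsz (0.19, edgeR adjusted p = 0.167) no longer passed.

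Along the carrier sum that separates early PrE from visceral endoderm, Cubn and Lrp2 ended lower than they began in Types I and II. The other members ended higher there, not all of them at every step. Endoderm barcodes were put in 5 bins by their summed Ttr, Rbp4, Apoa1 and Apoa2 level, with edges at 100, 1000, 3000 and 10000 CPM. From the lowest to the top bin Ctsh went from 131 to 708 CPM in Type I and from 121 to 757 CPM in Type II, 5.41 and 6.24 times as much. The same ratio was 3.26 and 3.57 for Lgmn, 2.61 and 3.39 for Ctsb, 2.26 and 2.13 for Ctsl and 1.95 and 1.79 for Amn, and these 5 genes were higher at every step in both libraries. Lrp2 went from 283 to 119 CPM in Type I, lower at every step, and in Type II from 261 CPM through 400 CPM in the second bin to 149 CPM. Cubn went from 642 to 464 CPM in Type I, lower at every step, and in Type II it was at 616 CPM in the lowest bin, 769 CPM in the third and 548 CPM in the top bin. For Ctsc the ratio was 1.26 and 1.12. Dab2 was higher at every step in Type I, from 855 to 1219 CPM. In Type II Dab2 went from 816 CPM through 1396 CPM in the third bin to 1117 CPM in the top bin. Ctsz had ratios of 1.40 and 1.44, and in Type I it went from 460 to 453 CPM at the first step. In Type III Cubn and Lrp2 did not end lower: Cubn went from 684 to 1100 CPM and Lrp2 from 216 to 450 CPM, with 2 barcodes in the top bin and no steady order between the bins. No test was made over barcodes.

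**Figure D4:**
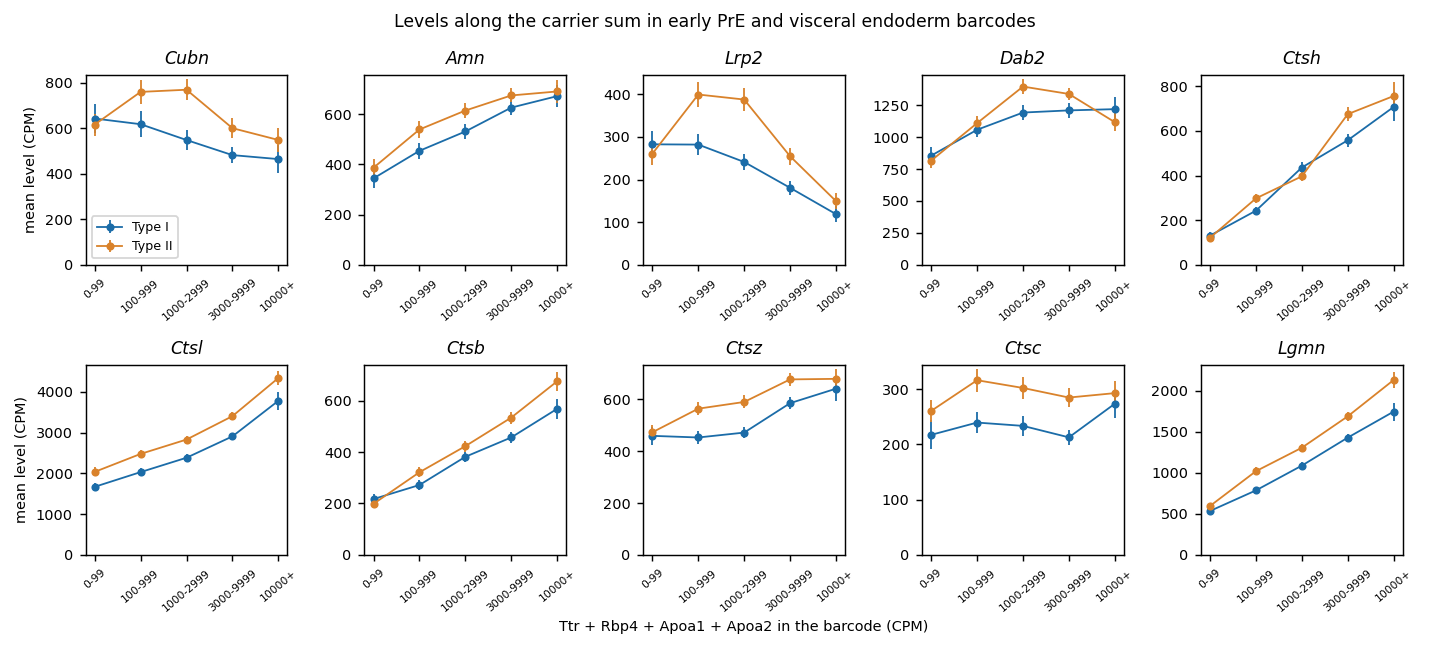
Mean level (CPM, barcodes thinned to 10000 UMIs) of each gene in early PrE and visceral endoderm barcodes, in 5 bins of the summed level of Ttr, Rbp4, Apoa1 and Apoa2 (x axis, CPM); bars are standard errors over barcodes of 1 library, not replicate error. Ctsh, Lgmn, Ctsb, Ctsl and Amn are higher at every step in Types I and II, and Lrp2 ends at 119 and 149 CPM, below its lowest bin.

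Within visceral endoderm the genes varied together only in part. Over visceral endoderm barcodes thinned to equal depth, the 45 pairs had a median Spearman correlation of 0.31 in Type I (443 barcodes) and 0.30 in Type II (563 barcodes), given as a description since barcodes of 1 library share their source. Cubn paired with Dab2 (0.49 and 0.56) and with Lrp2 (0.42 and 0.51), and Ctsl with Lgmn (0.52 and 0.46). Lrp2 with Ctsh was at 0.01 and -0.12, and Cubn with Ctsh at 0.12 and 0.01. In early PrE the medians were 0.39 and 0.45, all 45 pairs were above 0 in both libraries (lowest 0.16 and 0.18), and Lrp2 with Ctsh was at 0.16 and 0.23.

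Between the types, 8 comparisons within a state had at least 50 barcodes in both libraries. The size rule was a 2-fold difference on the log2(CPM + 10) scale in genes with 50 CPM or more in 1 of the libraries, which 10 members reached in endoderm but 2 to 4 in TE and epiblast. Of the members that reached it 0 passed. For Type II over Type I the share of all genes that passed was 0% in visceral endoderm and epiblast, 0.0748% in early PrE and 0.179% in TE. For Type III it was 0.681% over Type I and 0.514% over Type II in TE, and 0.215% and 0.258% in epiblast. With 1 library per type there was no test. Below that level members did differ in their ratio of CPM. In TE, Dab2 was at 14.1 CPM in Type III and 39.5 CPM in Type I (log2 ratio -1.48), Amn at 1.77 CPM in Type III and 13.2 CPM in Type II (-2.91) and Ctsh at 2.73 and 13.4 CPM (-2.30). The Type III levels of Amn and Ctsh rest on 11 and 17 UMIs, and single thinned barcodes of Type II held up to 16 and 12. As a share of visceral endoderm both lay below Col4a1 in TE of each library, and the part of free RNA was not tested. In visceral endoderm Type II was above Type I for 10 of 10 genes, by log2 ratios of CPM from 0.11 for Dab2 to 0.42 for Lrp2, larger than counting error and with no replicate check. Of all 2695 genes at 50 CPM or more, 57.2% were above 0 in that comparison. After thinning, Dab2 in TE was lower in Type III than in Type I (11.1 against 59.6 CPM) and Lgmn lower than in Type II (20.8 against 59.7 CPM). Those are the members that passed the size rule there.

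The genes whose levels over the 12 sums were most like those of the receptors and adaptor, among 3719 genes with at least 50 CPM somewhere, were Mydgf (Pearson r 0.998), Amdhd2, Scd1, Atp6v0b and Txndc17 (r 0.996 to 0.997). Mydgf, a secreted growth factor, stood at 173 to 188 CPM in visceral endoderm and 179 to 198 CPM in early PrE, against 65.4 to 74.1 CPM in epiblast. Scd1 encodes a fatty acid desaturase and Atp6v0b a subunit of the proton pump that acidifies lysosomes. Most like the proteases were Neu1, Cotl1, Tpp1, Oat and Gga2 (r 0.996 to 0.997). Neu1, the lysosomal sialidase, stood at 162 to 211 CPM in visceral endoderm, 128 to 147 CPM in early PrE and 20.3 to 23.9 CPM in epiblast. Tpp1 is a lysosomal tripeptidyl peptidase and Gga2 a sorting adaptor between Golgi and endosomes. These r describe 12 sums that share libraries and have the same states.

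The rest of the uptake route was read from lists of textbook members, chosen with earlier results of these data known. Of 20 endocytic adaptor and coat genes, 16 were higher and 3 lower in visceral endoderm than in epiblast, with a median log2 fold change of 0.67. In this comparison, which also serves the next lists, 38% of all genes were called higher and 37.7% lower. Myo6, the motor that carries coated vesicles inward, rose by 4.05 on the log2 scale (edgeR adjusted p = 5.36e-13), from 14.2 ± 1.95 CPM in epiblast to 269 ± 25.1 CPM in visceral endoderm (SD, n = 3). Lrpap1, the chaperone that keeps megalin free of ligand during its synthesis, rose by 2.90 (edgeR adjusted p = 1.36e-12), and was higher still in early PrE (957 ± 69.0 against 760 ± 35.8 CPM, SD, n = 3, edgeR adjusted p = 0.00976), as Lrp2 itself was in each library. Dab1, the neuronal relative of Dab2, was lower in visceral endoderm by -3.74 on the log2 scale (edgeR adjusted p = 1.00e-09), at 0.965 ± 0.405 CPM (SD, n = 3).

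Of 20 endosome and recycling genes 17 were higher and 2 lower (median log2 fold change 1.33). Clcn5, the endosomal chloride and proton exchanger, was at 165 ± 7.23 CPM in visceral endoderm and 10.8 ± 2.81 CPM in epiblast (SD, n = 3), and Rab11fip5, a recycling factor, at 68.3 ± 7.11 and 2.55 ± 0.460 CPM. Of 17 other endocytic receptors 9 were higher and 3 lower (median 0.58). Fcgrt, the neonatal Fc receptor, was at 9.07 ± 3.13 CPM in visceral endoderm and 0.787 ± 0.294 CPM in early PrE (SD, n = 3). Tfrc, which takes up iron-loaded transferrin, was lower in visceral endoderm by -3.18 on the log2 scale (edgeR adjusted p = 1.05e-10), at 11.1 ± 4.21 against 106 ± 15.9 CPM in epiblast (SD, n = 3).

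Lysosomal genes were mostly higher in visceral endoderm as well. Of 9 other lysosomal proteases tested 7 were higher and 1 lower (median 2.07), among them Ctsa, with a log2 fold change of 3.02 (edgeR adjusted p = 3.87e-12), and Ctsd, the aspartic cathepsin D, with 2.72 (edgeR adjusted p = 7.90e-13). Of 22 hydrolases 20 were higher and 2 lower (median 1.78), of 15 membrane and lipid-handling genes 13 higher and 0 lower (median 1.63), and of 16 proton pump (V-ATPase) genes 15 higher and 1 lower (median 1.37). Gaa, the acid glucosidase, was at 99.5 ± 7.55 against 11.6 ± 1.39 CPM (SD, n = 3). Atp6v0a1 rose by 3.23 (edgeR adjusted p = 3.99e-12), and the pump subunit that fell was Atp6v0a4, at 0.232 ± 0.313 against 5.33 ± 0.0680 CPM (SD, n = 3). Both cystatins tested, the secreted cathepsin inhibitor Cst3 (2.77, edgeR adjusted p = 2.95e-12) and the cytosolic Cstb (1.88, edgeR adjusted p = 1.34e-11), were higher. Of 9 rodent placental cathepsins, relatives of Ctsl in the trophoblast, 0 had enough counts to be tested.

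Of 11 lysosome regulators 8 were higher and 3 lower (median 1.15). Tfec, a MiT/TFE family factor, was at 64.1 ± 27.1 CPM in visceral endoderm, 111 ± 25.8 CPM in early PrE and 0.634 ± 0.723 CPM in epiblast (SD, n = 3), a log2 fold change of 5.89 over epiblast (edgeR adjusted p = 5.35e-11). Its relative Tfeb rose by 2.68 (edgeR adjusted p = 2.96e-08), from 1.91 ± 0.892 to 15.3 ± 1.09 CPM (SD, n = 3), whereas Mitf fell (-1.02, edgeR adjusted p = 0.0119) at a level near 1 CPM. All 7 cargo carrier genes tested were higher (median 5.68), including Apob (7.50, edgeR adjusted p = 1.21e-10) and Afp (6.93, edgeR adjusted p = 1.40e-13), secreted products of the same cells as the carriers of the state rule. The median over all 13605 genes was 0.00, with 38% called higher and 37.7% lower. Without scaling beyond library size no list had fewer genes higher. That setting moved the median over all genes up to 0.16 and genes called higher from 5169 to 5935, so it is no separate check of the lists.

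Over early PrE the lists were closer. In this comparison 11.7% of all genes were called higher and 10.9% lower. Visceral endoderm was higher for 12 of 22 hydrolases, 8 of 15 membrane genes and 5 of 9 other proteases, with 0 lower in each. For V-ATPase it was 3 of 16, for adaptors and coat 4 higher and 2 lower of 20, and for endosome genes 4 higher and 4 lower of 20. All 7 cargo carriers were higher (median 2.22). Of 11 regulators 2 were higher and 1 lower, the latter being Tfec (-0.90, edgeR adjusted p = 0.000995).

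**Figure D5:**
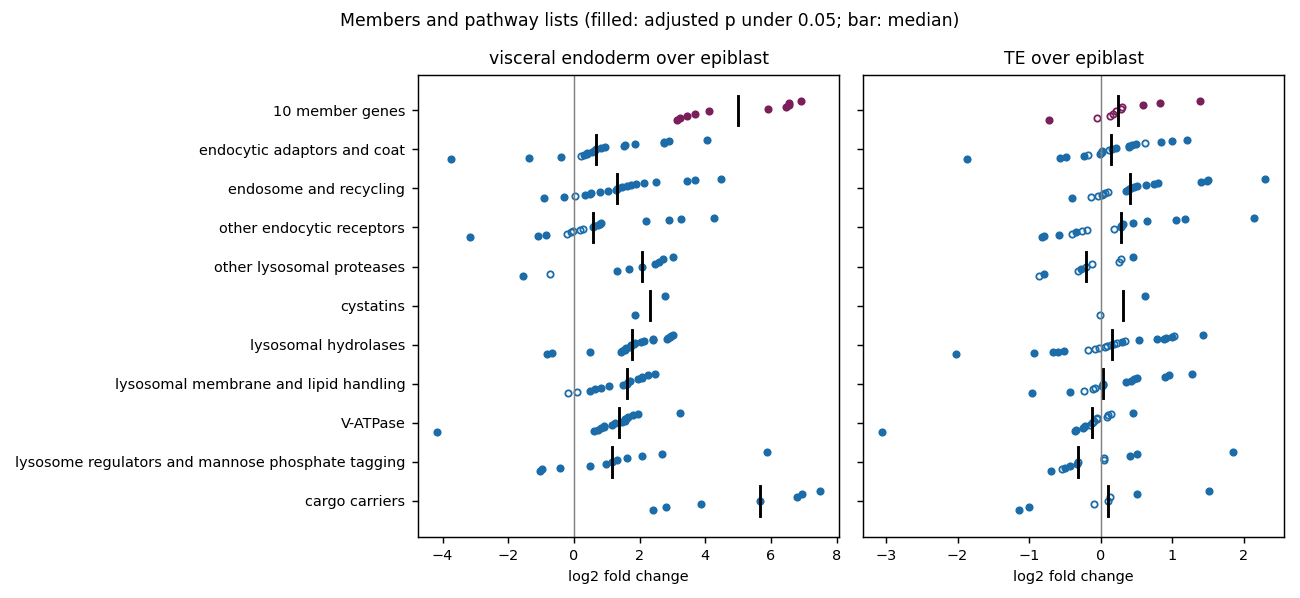
Log2 fold change (x axis) of the 10 genes and of 10 pathway lists in visceral endoderm over epiblast and in TE over epiblast; each point is a gene, filled where the edgeR adjusted p was under 0.05, and the bar is the list's median. In the left panel the 10 genes have a median of 5.01 and only the cargo carriers (5.68) lie higher; in the right panel the medians lie between -0.32 and 0.41.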

How the data were processed

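UMI counts per gene and barcode were deposited by the authors as 1 matrix per library, and per the file headers came from Cell Ranger 6.0.1. The submitters' processing notes name build mm10. The sources used here do not give the annotation or how barcodes were called as cells. The matrices hold 90126648, 106445641 and 25443474 UMIs in 6813, 9265 and 2310 barcodes of Types I, II and III. The 10 genes, the state rule and the pathway lists were chosen with earlier results of these data known.

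Counts were summed per library and state (12 sums) and tested with edgeR 4.0.16 (quasi-likelihood, TMM, filterByExpr, library as a block, common dispersion 0.00558, Benjamini-Hochberg at 0.05 over 13605 genes). The 11 genes of the state rule were not tested. States of 1 library share its preparation, which is the pairing used: deviations of same-library sums correlated at 0.0487 to 0.210. Shares used barcodes thinned to 10000 UMIs, with exact 95% binomial intervals, and a count of 0 allows 3 counts. Fold changes between types used log2(CPM + 10) with a 2-fold rule. Intervals cover counting error only. No doublet caller was run, and left-out barcodes stand in for it. The test was tried on simulated data.

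Besides the 10 genes, up to 2 called genes with the highest and 2 with the lowest fold change of visceral endoderm over epiblast in each list were eligible to be named, and 5 genes for each likeness profile. DESeq2 1.42.0, other scaling, filters and thresholds and left-out libraries were alternatives. No protein sequences were used here. Gene positions are from GENCODE on GRCm38 and promoters from RefSeq on GRCm38.p6.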

Additional observations from a re-analysis of the deposited data

Results flagged for a closer look

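Ctsc went opposite ways between the endoderm states in different libraries: its log2 ratio of visceral endoderm over early PrE was 0.28 in Type III and -0.071 in Type I, with counting intervals that exclude 0 on either side. The difference between the libraries was not tested, Type III has 19 visceral endoderm barcodes, and the Ctsc level is uncertain because of shared transcript ends.

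Barcodes outside the 4 states also carried these genes, above the limit that a count of 0 allows. In barcodes that met no gate the 4 receptor and adaptor genes summed to 91.9, 83.9 and 73.1 CPM in Types I, II and III and the 6 proteases to 530, 575 and 571 CPM. In shallow barcodes with at least 1000 and under 10000 UMIs the receptor and adaptor genes summed to 1088, 973 and 895 CPM and the proteases to 2322, 2166 and 1714 CPM. Those shallow barcodes numbered 3943, 6349 and 966 and entered no comparison.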

How the results depend on the processing

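In the 4 comparisons of an endoderm state with epiblast or TE, all 10 genes kept their direction and call in 720 of 720 values over 18 alternatives. The count of all called genes fell to 2725 and 2028 for visceral endoderm over epiblast and over TE with barcodes meeting exactly 1 gate, and to 5915 and 4886 for visceral endoderm and early PrE over TE with thinned barcodes.

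TE over epiblast was less settled. Members called higher went from 3 to 6 with doubled thresholds, thinned barcodes or no scaling, and were 2 to 6 when single libraries were left out. Members called lower went from 1 to 0 with doubled thresholds or no scaling, and all called genes from 7912 to 4977 with thinned barcodes. Log2 fold changes that turned were those of Cubn (0.031 with lowered thresholds, 0.76 with doubled ones, 0.42 without the deepest 10% of barcodes, 0.036 thinned, 0.26 with no scaling, and with single libraries left out from -0.16 to 0.035, the latter without Type III), Amn (-0.15 without Type II to 0.45 without Type III) and Ctsh (-0.13 with lowered thresholds, and with single libraries left out -0.019 without Type II to 0.31).

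For visceral endoderm over early PrE, members called higher were 1 with exactly 1 gate, and 4 to 7 with single libraries left out. Members called lower were 1 (Lrp2) with thinned barcodes, with no low-count filter, without endoderm barcodes high in other markers (added after seeing the data), and 0 to 1 with single libraries left out. All called genes, 3079, became 4737 with lowered thresholds, 102 with 1 gate, 1689 thinned, and 718 to 3181 with single libraries left out (718 without Type II, 1823 without Type I). Log2 fold changes that turned were, with 1 gate, Amn (-0.22), Dab2 (-0.14), Ctsz (-0.059) and Ctsc (-0.41). Ctsc also turned thinned (-0.025), without Type III (-0.037, against 0.11 without Type I), without barcodes of other states at the Pou5f1 threshold (-0.015, added later) and without those high in other markers (-0.10), and Cubn turned without the deepest 10% (0.029). Amn also lost its call with doubled thresholds (adjusted p = 0.262), DESeq2 (0.437) and without barcodes at the Pou5f1 threshold (0.0848) or high in other markers (0.106). With no replicate block, 4 members were called higher, Amn (edgeR adjusted p = 0.141) and Ctsz (0.0721) being lost, and no other member's call changed. The cause was not tested, except that exactly 1 gate leaves 7, 5 and 1 visceral endoderm barcodes.

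Between types, thinning made 1 member differ 2-fold in TE for Type III over Type I and 1 for Type III over Type II. Without thinning, 108 of 120 shares of barcodes with a UMI moved past their interval. Type III, with 19 and 45 endoderm barcodes, and the single library per type limit what can be read.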
